A study of Mus musculus with 26 samples.

Results

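Total H3K27me3 was compared between Dppa2/4 double knockout (DKO) and wild type (WT) mouse embryonic stem cell clones, over 43057 regions. These regions are the 21436 of the WT H3K27me3 table together with the 21621 of the 32352 DKO regions that overlapped no WT region, out of 338442 regions in the 12 tables of the series. Of the 26 libraries, 4 enter the comparison, which are WT clones 57 and 58 and DKO clones 43 and 53. All 4 are clones of E14, an established embryonic stem cell line, grown in serum and LIF without feeder cells, and all were sequenced in the same batch. WT carries no label beyond that genotype, and in DKO both Dppa2 and Dppa4 are knocked out. Each genotype is represented by 2 clones with 1 library each, so the spread between clones and the noise of single libraries cannot be told apart in any p-value. The variance behind each p-value is also drawn towards that of regions of like level. In a sequential ChIP (reChIP) chromatin passes through 2 antibodies in turn, and total H3K27me3 is the 10% kept back between them. K27-K4 is the remainder, taken on to a second ChIP for H3K4me3, whereas total H3K4me3 and K4-K27 start from a separate H3K4me3 ChIP.

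H3K27me3 is deposited by the Polycomb complex PRC2, often at CpG-rich promoters of genes that are silent or barely transcribed. In embryonic stem cells many developmental promoters carry it together with H3K4me3, a mark of promoters that are active or can become so, and such chromatin is called bivalent. DPPA2 and DPPA4 are small DNA-binding proteins that act as a pair, are made mainly in pluripotent and germ cells, and have been described as keeping a set of bivalent promoters primed. The comparison asks where H3K27me3 itself is lower or higher without them.

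H3K27me3 was lower in DKO at 172 regions and higher at 7 (limma on log2 RPM per kb, Benjamini-Hochberg adjusted p under 0.05 over all 43057 regions and a log2 difference above 1). That is 0.399% and 0.0163% of the regions tested, and 40 of the 172 lay at promoters, which reach 1.5 kb either side of a start site. These counts depend on the scaling and on single clones. Limma called 0 regions in either direction after median centring, quantile normalisation or IgG-IgG subtraction or with the H3K4me3 totals in the same fit, and leaving out a clone gave 140 to 502 lower and 0 to 885 higher. All 172 lost regions still lay below 0 after median centring, quantile normalisation, IgG-IgG subtraction and with the H3K4me3 totals in the fit. Their smallest falls were -1.72, -1.83, -1.71 and -1.71 in that order, and all 7 gained regions stayed above 0. The lost regions were of unlike kinds. There were 68 wider than 300 bp, mostly over promoters or coding exons of genes such as Tbr1, Oxct2a, Gnas and Tcf21, and 104 of exactly 300 bp, the narrowest width listed, mostly far from any start site and with few reads. All 7 gained regions were 300 bp wide and none lay at a promoter. The 7 were listed only in DKO and 169 of the 172 lost regions only in WT. Both kinds were thus picked in the same clones that were then compared. With only the regions wider than 300 bp tested, limma called 230 of them lower and 9 higher. The split at 300 bp was chosen after the values were seen.

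Promoters of 5 genes at which H3K27me3 fell show the sequence in which the change took place. Oxct2a had the largest fall, Tbr1 and Tcf21 encode developmental transcription factors, and Gp5 and Sstr4 stand for a promoter without CG and a promoter rich in it. Each window runs from 250 bases before to 50 bases after the start site, 5′ to 3′ on the strand of the gene, as given by RefSeq for GRCm38.p6, and every CG is in capitals. The windows lie at chr4:123323630-123323929 on the minus strand (Oxct2a), chr2:61804203-61804502 on the plus strand (Tbr1), chr16:30310732-30311031 on the minus strand (Gp5), chr10:22820094-22820393 on the minus strand (Tcf21) and chr2:148395127-148395426 on the plus strand (Sstr4).
Oxct2a: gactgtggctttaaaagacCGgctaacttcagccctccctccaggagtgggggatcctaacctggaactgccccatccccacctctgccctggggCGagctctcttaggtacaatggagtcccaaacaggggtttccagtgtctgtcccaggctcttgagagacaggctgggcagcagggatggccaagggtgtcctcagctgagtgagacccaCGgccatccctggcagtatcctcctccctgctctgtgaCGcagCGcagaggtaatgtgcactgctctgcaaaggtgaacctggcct
Tbr1: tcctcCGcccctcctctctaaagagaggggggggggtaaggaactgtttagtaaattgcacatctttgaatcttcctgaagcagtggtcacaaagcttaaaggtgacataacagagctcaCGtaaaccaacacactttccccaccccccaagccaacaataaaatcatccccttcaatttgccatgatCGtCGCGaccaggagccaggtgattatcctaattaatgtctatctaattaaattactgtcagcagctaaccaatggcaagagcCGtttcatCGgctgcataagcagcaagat
Gp5: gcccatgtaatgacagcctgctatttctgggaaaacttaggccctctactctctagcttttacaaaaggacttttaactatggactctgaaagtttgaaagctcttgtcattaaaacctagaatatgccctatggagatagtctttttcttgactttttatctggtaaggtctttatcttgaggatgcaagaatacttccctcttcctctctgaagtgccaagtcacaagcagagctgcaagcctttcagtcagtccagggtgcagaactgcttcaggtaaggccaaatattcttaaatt
Tcf21: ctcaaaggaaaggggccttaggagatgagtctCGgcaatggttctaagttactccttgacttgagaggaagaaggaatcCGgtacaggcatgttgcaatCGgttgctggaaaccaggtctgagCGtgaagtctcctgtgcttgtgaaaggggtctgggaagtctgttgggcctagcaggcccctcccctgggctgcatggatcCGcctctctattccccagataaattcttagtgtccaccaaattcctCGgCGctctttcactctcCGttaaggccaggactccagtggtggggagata
Sstr4: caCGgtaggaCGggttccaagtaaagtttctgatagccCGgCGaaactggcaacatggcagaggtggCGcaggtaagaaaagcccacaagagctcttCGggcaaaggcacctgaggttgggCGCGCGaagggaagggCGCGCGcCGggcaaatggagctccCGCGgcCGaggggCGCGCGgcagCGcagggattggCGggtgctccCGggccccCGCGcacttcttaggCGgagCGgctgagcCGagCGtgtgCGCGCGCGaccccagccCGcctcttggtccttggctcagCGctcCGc
These windows held 5, 7, 0, 8 and 35 CG, in the order printed. Of the 31 RefSeq windows that lay inside lost regions wider than 300 bp, 96.8% held a CG, the median was 11 and the range 0 to 44, and 54.8% held 10 or more. Among all 32851 RefSeq windows 94.6% held a CG, the median was 7, and 43.5% held 10 or more. CG on one strand is CG on the other, so both strands were searched at once.

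Between 15601155 and 33848181 reads stood behind the H3K27me3 values of a clone, with DKO clone 53 the most deeply sequenced, and the median region held 18 reads in WT clone 57, 13 in WT clone 58, 17 in DKO clone 43 and 31 in DKO clone 53. The median level over the 43057 regions was 0.70, 0.36, 0.54 and 0.53 in the same order (log2 RPM per kb), so the WT clones differed from each other more than the DKO clones did. The median difference between the genotypes was 0.14, within the SD of 0.244 between the medians of the 2 WT clones. All 17 pluripotency factors examined had an H3K4me3 region at the promoter in both genotypes, with medians of 3.02 and 1.84 in WT clones 57 and 58 and 2.87 and 2.41 in DKO clones 43 and 53. At Dppa2 and Dppa4 themselves no H3K27me3 region was listed. H3K4me3 at the WT region over Dppa2 was 1.90 and 0.77 in WT and 2.08 and 1.34 in DKO, and over Dppa4 it was 2.34 and 1.45 in WT and 2.39 and 1.56 in DKO. A promoter mark does not read the proteins, so it does not check the knockout.

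Tbr1, a T-box transcription factor of cortical neurons, lost H3K27me3 along its whole gene. At its promoter, chr2:61803901-61808100 (4.2 kb, mm10), the level was 1.80 and 1.16 in WT clones 57 and 58 and -1.18 and -1.17 in DKO clones 43 and 53. Both DKO clones were far below both WT clones, at a log2 difference of -2.65 ± 0.43 (SE, n = 2 clones per genotype, limma adjusted p = 0.0108), which is 6.30-fold. The next 5.25 kb, chr2:61808551-61813800, held 1.65, 0.86, -2.13 and -1.24 in the same clones, a difference of -2.94 ± 0.61 (limma adjusted p = 0.0362). The adjoining 3.15 kb, chr2:61813801-61816950, held 1.85, 1.07, -1.26 and -1.41, a difference of -2.80 ± 0.47 (limma adjusted p = 0.0108). These 3 regions cover exons of Tbr1 and were the only lost regions within 5 kb of each other. The 172 lost regions otherwise stood alone, at 170 loci.

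Among the called regions the largest fall was at Oxct2a, a testis-expressed enzyme of ketone body use. Its region, chr4:123323101-123324300, held 78 and 43 reads in the WT clones and 4 and 23 in the DKO clones, or 1.82, 1.20, -2.46 and -0.82 on the log2 scale. The difference was -3.15 ± 0.56 (limma adjusted p = 0.0228), 8.86-fold, and the DKO clones lay further apart from each other than the WT clones did. At Oxct2b, its close copy, the difference was -2.01. The MHC class I genes H2-Q5, H2-Q6 and H2-Q7, which are close copies too, were at -2.47, -2.31 and -1.79. Only alignments with a mapping quality over 20 were counted, which leaves out reads that fit copies equally well, and how far this touches these values was not tested.

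Several further lost promoters are described by gene, without a test of any theme. Gnas is the imprinted locus of the stimulatory G protein alpha subunit, and chr2:174296401-174301500 held 2.38 and 1.76 in WT and -0.13 and -0.70 in DKO (-2.49 ± 0.42, limma adjusted p = 0.0108). Gnas was the only lost region among the 17 at promoters of imprinted genes (5.88%, against 0.683% of promoter regions). Sstr4, a somatostatin receptor, held 1.58 and 0.97 in WT and -0.78 and -0.57 in DKO, a difference of -1.94 ± 0.41 (limma adjusted p = 0.0368). The vasopressin receptor gene Avpr1a (-1.93), the GABA transporter gene Slc6a11 (-1.92), the orphan receptor gene Gpr26 (-1.82), Dab1 of the Reelin pathway (-2.11), Shc3, a neuronal adaptor (-1.95), and Lamp5 (-1.77) were also lost. In each of these 6 both DKO clones lay below both WT clones, as in all 172 lost regions.

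Tcf21 is a bHLH transcription factor of kidney, lung and heart mesenchyme. Its region, chr10:22818601-22821000, held 1.72 and 1.10 in WT and -1.29 and -0.46 in DKO, a difference of -2.28 ± 0.42 (limma adjusted p = 0.0291). Gp5, a platelet glycoprotein, held 1.69 and 0.86 in WT and -1.35 and -0.92 in DKO (-2.40 ± 0.47, limma adjusted p = 0.0342). Klhl40, a muscle kelch protein, fell by 1.91, Mab21l2, which is needed for eye development, fell by 1.89, and Ptx3, a secreted pentraxin, fell by 1.86. Khdc3, of the oocyte's maternal complex, fell by 1.76. Apart from Tbr1, Oxct2a and Gnas, the regions wider than 300 bp that are named here lie outside the 10 largest falls and the fixed gene lists, and were chosen after their values were seen. The potassium channel gene Kcns1 was named by its list.

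**Figure D1:**
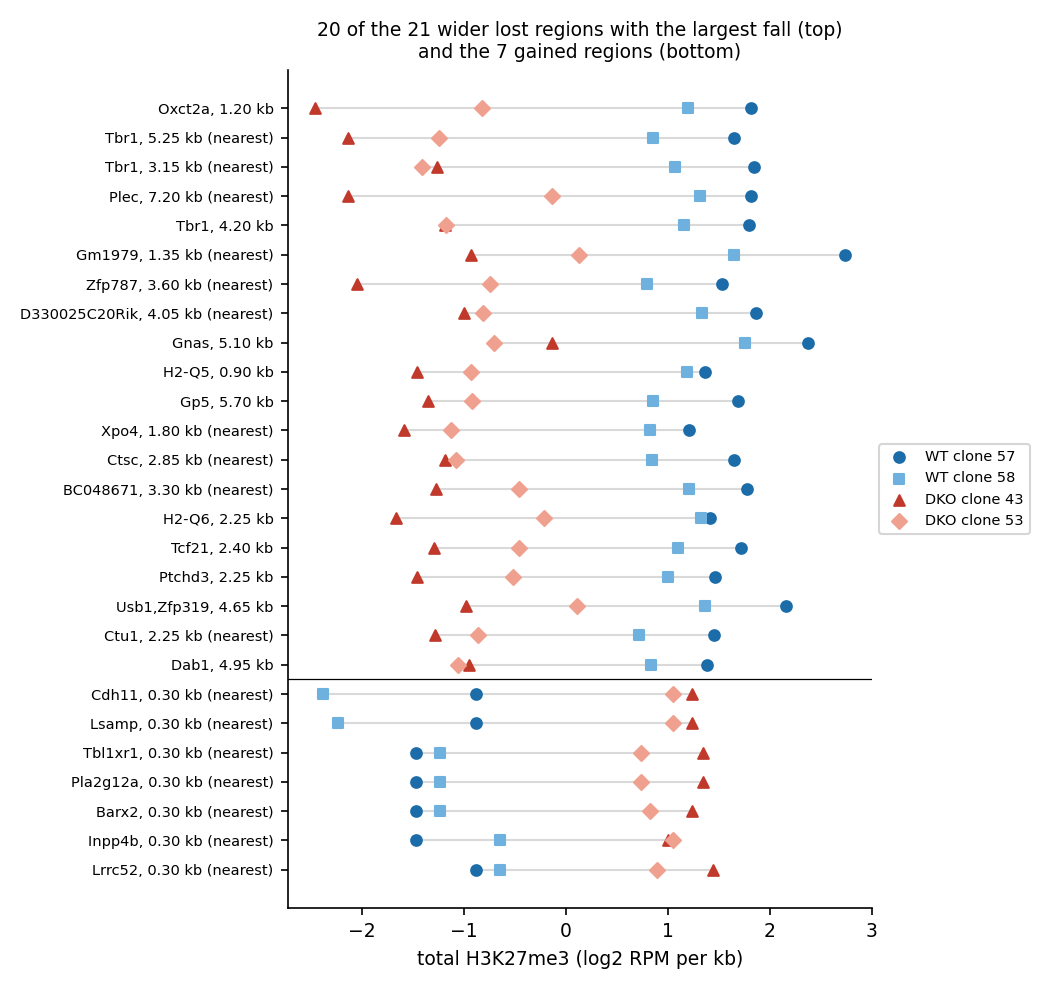
Total H3K27me3 (x axis, log2 RPM per kb) in each clone at 20 of the 21 lost regions wider than 300 bp with the largest fall and at the 7 gained regions, 1 row per region, labelled by its promoter or nearest gene and its width. In each row above the line both DKO clones lie below both WT clones, and in each row below it they lie above. This holds for all 172 lost and all 7 gained regions, so it is no separate reading.

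Over the 68 wider lost regions the median level was 1.68 and 1.11 in WT clones 57 and 58 and -0.80 and -0.42 in DKO clones 43 and 53. The differences ran from -3.15 to -1.71 with a median of -2.01. Their median reads were 234, 123.5, 37.5 and 90.5, so what remained in DKO was counted, not absent. The IgG-IgG reChIP of WT clone 57 had a median of -0.43 there. Both WT clones exceeded it at all 68 regions, both DKO clones exceeded it at 21 and both lay below it at 31. Over all 43057 regions these counts were 41395, 41917 and 335. The 104 lost regions of 300 bp rested on far fewer reads, with 12, 11, 3 and 6 reads at the median and at most 18 in any clone. Their differences spanned -3.04 to -1.71. The largest was in a region 78.7 kb from Rnf217, its nearest gene, with 12 and 13 reads in WT and 1 and 5 in DKO (-3.04 ± 0.63, limma adjusted p = 0.0354). The others among the 10 largest falls were nearest B020011L13Rik (-2.84), Inpp4b (-2.84), Gm32282 (-2.79), Bank1 (-2.77), Gm20063 (-2.75) and 1700128A07Rik (-2.72). Those at Inpp4b and Bank1 were intronic, and the rest were intergenic, with WT reads between 9 and 14 in every clone. Of the 104, 2 were at promoters, those of Tbx22 (-1.75), a T-box factor of palate development, and Hsd11b1 (-2.10), an enzyme that regenerates active glucocorticoid.

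The wider lost regions had a median width of 3600 bp, an interquartile range of 2400 to 5137.5 bp and a maximum of 8850 bp, at Zfp853, a zinc finger gene (-2.10). They made up 271.5 kb of the 302.7 kb lost. Of the 68, 55.9% were at promoters, 36.8% in exons outside promoters, none in introns alone and 7.35% intergenic. Exons overlapped 91.2% of them and coding exons 80.9%. Over all 43057 regions, 13.6% were at promoters, 54.9% were intergenic and 17.5% overlapped an exon. Regions of like width shared much of this placement, called or not. Of the 3227 regions from 3150 bp up to 10 kb, 63.9% were at promoters, 17.2% were intergenic, 74.4% overlapped an exon and 59.1% a coding exon. Wider lost regions away from a promoter included 7.2 kb over exons of Plec, the cytoskeletal linker plectin (-2.70), and 3.6 kb near the zinc finger gene Zfp787 (-2.56). Of the 104 lost regions of 300 bp, 62.5% were intergenic, 30.8% intronic and 1.92% at promoters, close to the 63.9%, 29.1% and 3.36% of all 9971 regions of that width. Their median distance to a start site was 71.6 kb, against 0.3 kb for the wider lost regions, 38.5 kb for the 9971, 0 kb for the 3227 and 21.7 kb for all regions. CpG density was 3.22 per 100 bp at the wider lost regions, 0.67 at those of 300 bp, 2.52 at the 3227, 0.67 at the 9971 and 1.11 over all regions (medians), and GC content was 52.6%, 44.5%, 52.2%, 46.3% and 48.0%.

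By width, 1.04% of the 9971 regions of 300 bp were called lower, 0.0279% of the 25115 between 450 and 1500 bp, 0.403% of the 4466 between 1650 and 3000 bp, and 1.33% of the 3227 from 3150 bp up to 10 kb. None of the 278 regions of 10 kb and more was called (limma), 6 of them had both DKO clones below both WT clones by over 1, and their median difference was -0.05. These broad domains include those over the Hox clusters.

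**Figure D2:**
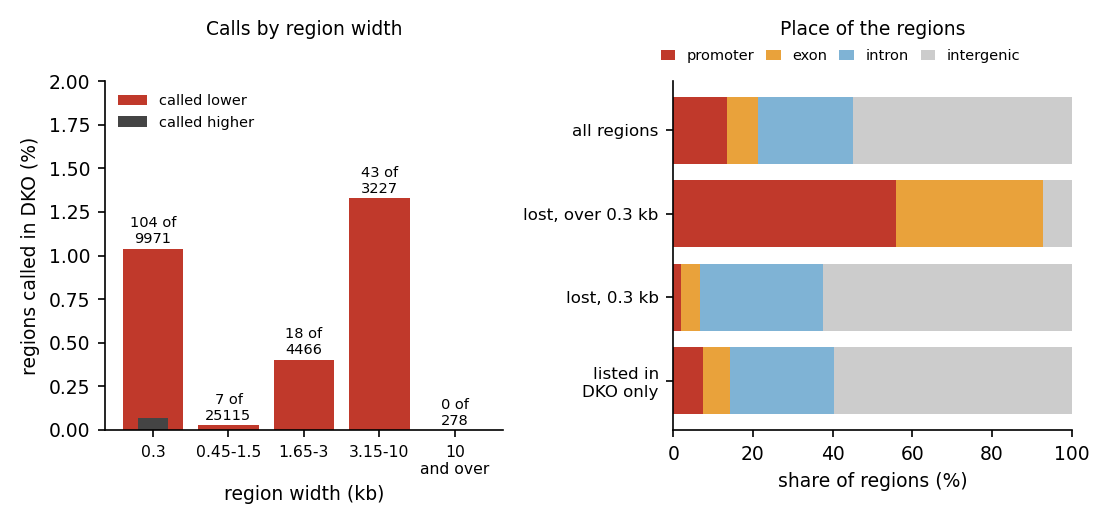
Left, the share of regions called lower or higher in DKO (%) in each class of region width (kb), with the number called lower out of those tested. Right, the share of regions (%) at promoters, exons, introns and between genes, for all regions, the lost regions and the regions listed only in DKO. The share called lower is highest at 300 bp and from 3.15 to 10 kb, with 7 and 18 calls in the classes between, and promoters and exons make up most of the wider lost regions.

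The other ChIPs of the same clones were read at these regions. K27-K4, which shares its first ChIP with total H3K27me3, was called lower at 66 of the 68 wider lost regions, against 0.808% of all regions, with a median difference of -3.20. The 2 exceptions were intergenic regions nearest Gm39631 (-1.12) and Dtnbp1 (-1.78). In K4-K27, from the separate ChIP, all 68 differences were below 0, with a median of -3.52. Only 1 of them was called, that nearest Gm1979 at -6.70 (limma adjusted p = 0.0369), against 0.00232% of all regions, while all 68 had an unadjusted p under 0.05 with a lower value, against 3.94% of all regions. For total H3K4me3 the median difference was -1.86 and 67 of 68 were below 0. None was called lower by limma (smallest adjusted p 0.0731), whereas 0.00465% of all regions were, and 61 of the 68, or 89.7%, had an unadjusted p under 0.05 with a lower value, against 3.98% of all regions. No other tool was run on these ChIPs.

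At Tbr1 the promoter region moved in every ChIP. Total H3K4me3 there was 0.62 and -0.20 in WT clones 57 and 58 and -1.31 and -1.15 in DKO clones 43 and 53. K4-K27 was 1.84 and 1.92 in WT and -0.95 and -1.77 in DKO, and K27-K4 was 2.92 and 2.22 in WT and -1.66 and -1.21 in DKO. In all 3 ChIPs both DKO clones lay below both WT clones, by -1.44, -3.24 and -4.01, of which K27-K4 was called (limma adjusted p = 0.00649). At Gnas total H3K4me3 remained above the IgG-IgG value of 0.65 in DKO clone 43 (1.02) and not in DKO clone 53 (0.18), from 2.22 and 1.30 in WT. Whether H3K27me3 and H3K4me3 changed by different amounts was tested as an interaction of genotype and mark over the 8 libraries. It was called at none of the 43057 regions (limma, smallest adjusted p 0.517, 7.01% with an unadjusted p under 0.05), and 2 of the 68 wider lost regions had an unadjusted p under 0.05. Both marks were read in the same clones, and with the clone as a block it was again called at none (limma, smallest adjusted p 0.171, 7.75% with an unadjusted p under 0.05), with 4 of the 68 under an unadjusted p of 0.05. At the 104 regions of 300 bp the median differences were -0.17 in K27-K4, 0.01 in total H3K4me3 and -0.23 in K4-K27, and limma called none of them in any of these ChIPs. An unadjusted p under 0.05 was reached by 11, 5 and 10 of them in K27-K4, K4-K27 and total H3K4me3 (10.6%, 4.81% and 9.62%), against 8.61%, 6.93% and 6.49% of all regions.

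**Figure D3:**
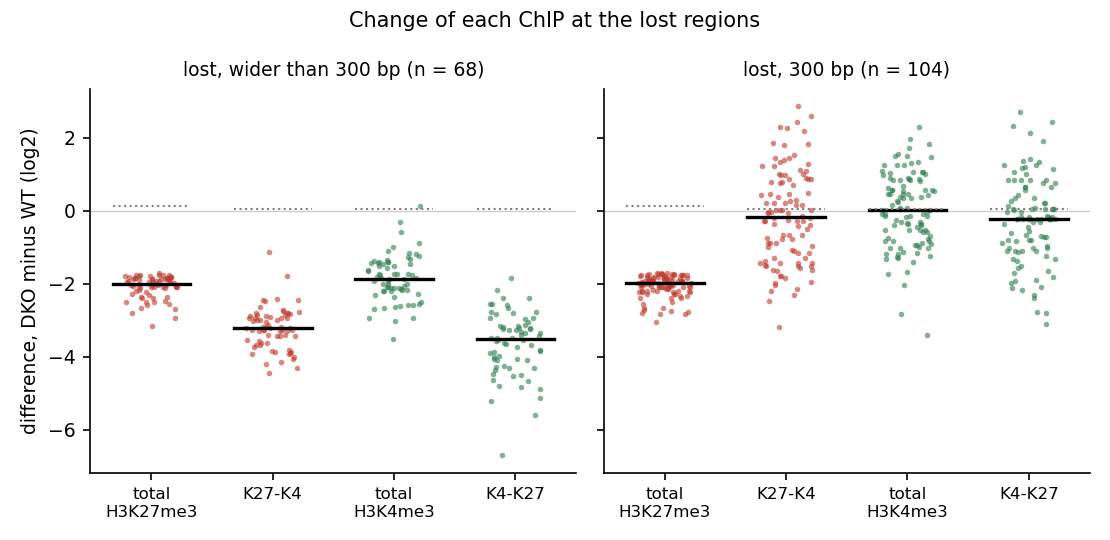
Difference of each ChIP between DKO and WT (y axis, log2) at the lost regions wider than 300 bp (left, n = 68) and of 300 bp (right, n = 104). Each point is a region, the solid line the median of the group and the dotted line the median of all 43057 regions. H3K27me3 is below 0 throughout because it chose the regions, while the other ChIPs lie below 0 at the left, except for 1 region in total H3K4me3, and around 0 at the right.

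Of the 68 wider lost regions, 67 overlapped both a K4-K27 and a K27-K4 region of E14 cells, which were separate libraries from the clones, against 24.4% of all regions and 91.2% of the 3227 from 3150 bp up to 10 kb. Of the 104 regions of 300 bp, 5 (4.81%) did, against 4.90% of all 9971 of that width. A WT H3K4me3 region overlapped 62 of the 68 and a DKO H3K4me3 region 5, against 15.7% and 12.9% of all regions. The counts were 68 and 6 for K4-K27 regions (16.5% and 15.8% of all regions) and 67 and 12 for K27-K4 regions (33.6% and 35.1%). Of the 4827 promoter regions overlapping both E14 lists, called or not, WT and DKO H3K4me3 regions overlapped 80.6% and 67.9%. For K4-K27 these shares were 83.3% and 76.9%, and for K27-K4 91.2% and 87.5%, so a high overlap in WT was common there. Among the 10507 regions bivalent in E14 cells by overlap with both E14 lists, 72 (0.685%) were called lower and none higher. Without a test, both DKO clones lay below both WT clones by over 1 at 653 of them (6.21%, against 6.34% of all regions) and above by over 1 at 198 (1.88%, against 6.63%). Among the other 32550 regions, 100 (0.307%) were called lower and 7 higher. The 4827 bivalent regions at promoters held 39 calls lower (0.808%) in H3K27me3 and 194 (4.02%) in K27-K4, near the 0.683% and 3.33% of all promoter regions. Most bivalent regions were thus called in neither ChIP.

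Where K27-K4 was called lower, total H3K27me3 mostly lay lower too. Over those 348 regions its median difference was -1.37, 339 were below 0 (97.4%, against 40.8% of all regions), and at 273 both DKO clones lay below both WT clones by over 1, against 6.34% of all regions. It was called at 66 of the 348, against 0.399% of all regions. These ChIPs share their first immunoprecipitation, so they are not independent readings.

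Gene lists were read at promoters, where 40 of 5856 regions were called lower and none higher by limma, and the median difference was 0.08. Without a test, both DKO clones lay below both WT clones by over 1 at 5.46% of these regions and above by over 1 at 2.87%. The Hox clusters, which set the body axis and are classic Polycomb targets, had 18 regions, none called, with a median of -0.10 and a range of -0.97 at Hoxd4 (limma adjusted p = 0.225) to 0.10. Forkhead factors (22 regions, median -0.10), Sox factors (16, median 0.03), Gata factors (5, median -0.14), Pax factors (8, median -0.09), homeobox factors of the Nkx, Dlx, Lhx, Irx and sine oculis families (40, median -0.06) and proneural bHLH factors (18, median -0.01) had none called either. The Forkhead gene Foxi2 came closest, at -1.70 (limma adjusted p = 0.0506). Pax8 was at -1.05, Irx6 at -1.07, Olig3 at -0.82 and Neurod1 at 0.82, none of them called.

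T-box factors, which pattern mesoderm, limb, heart and brain, had 17 regions. Of these 2 were called, at Tbr1 and Tbx22, against 0.683% of promoter regions, the median was -0.59, and in 6 both DKO clones lay below both WT clones by over 1. At Tbx3, which is also a pluripotency factor, the region held 1.66 and 0.93 in WT and -0.65 and -0.18 in DKO, a difference of -1.71 that missed the threshold (limma adjusted p = 0.053). H3K4me3 at that same region differed by 0.48 ± 0.70 (SE), less than its error (limma adjusted p = 0.997). Among the 4 pluripotency factors with an H3K27me3 region, Dppa3 was at 0.80 (limma adjusted p = 0.328).

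No region was called among 32 of Wnt ligands, Frizzled receptors and Sfrp genes (median 0.04), 17 of BMP, GDF, Nodal and inhibin ligands (median 0.07) or 21 of FGF ligands (median 0.07). Wnt16 was at -1.23, Gdf1 at 0.59 and Fgf14 at -0.74. Of 74 regions of potassium channel genes 1 was called (1.35%, against 0.683% of promoter regions), at Kcns1, a modulatory subunit, where 8.55 kb held 1.78 and 1.36 in WT and -0.22 and -0.36 in DKO (-1.87 ± 0.41, limma adjusted p = 0.0368). Kcna5 was at -1.66 (limma adjusted p = 0.0562), and in 8 of the 74 (10.8%) both DKO clones lay below both WT clones by over 1, against 5.46% of promoter regions. Glutamate, GABA and glycine receptor genes had 44 regions, none called, with a median of -0.09. Olfactory and vomeronasal receptor genes had 41, none called, with a median of 0.08 and 5 such regions (12.2%). The 13 regions at genes of Polycomb components had a median of 0.05, a range of -0.34 to 0.36 and no call.

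Some lists leaned lower without a call. The clustered protocadherins, adhesion proteins that give neurons their identity, had 58 regions with a median of -0.55, and in 12 of them (20.7%) both DKO clones lay below both WT clones by over 1. They lie side by side in a few clusters and are not independent of each other. Germline genes had 35 regions with a median of -0.34 and 8 such regions (22.9%). Asz1, which protects the germline against transposons, was at -1.96 (limma adjusted p = 0.184), and Sycp1, of the synaptonemal complex, at -1.68 (limma adjusted p = 0.0735). These shares compare with 5.46% of all promoter regions, and no test of the lists was made.

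**Figure D4:**
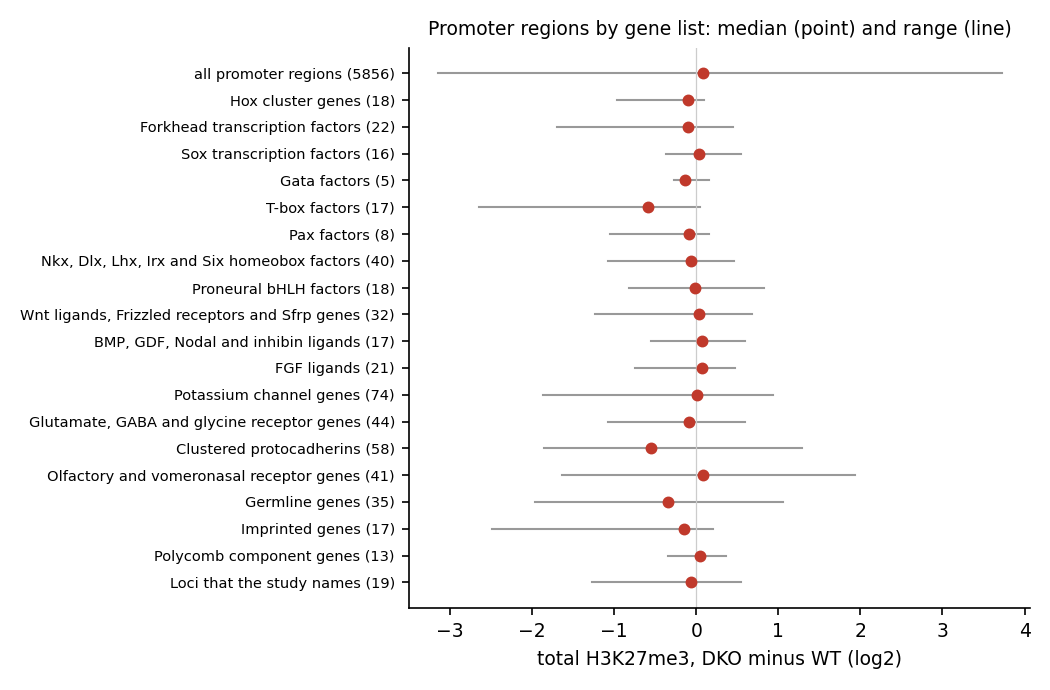
Difference in total H3K27me3 between DKO and WT (x axis, log2) at promoter regions of each gene list of 5 or more regions, with the number of regions in brackets, the median as a point and the range as a line. Most medians lie within 0.15 of 0, while T-box factors, clustered protocadherins and germline genes lie lower.

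Loci that the study itself examined gave 19 regions at 13 genes, with none called by limma. At Fam163a, chr1:156202501-156207600, H3K27me3 was 1.96 and 1.27 in WT and 0.11 and 0.57 in DKO, a difference of -1.27 ± 0.41 (limma adjusted p = 0.123). K27-K4 at the same region differed by -2.31 and was called (limma adjusted p = 0.0364). At Csf1, a macrophage growth factor, the difference was -1.05 (limma adjusted p = 0.201). In Fam163a and Csf1 both DKO clones lay below both WT clones. Lmo1 had regions at -0.70 and -0.10. Among the others were Pou4f1 at -0.30, Meis2 at -0.26 and -0.21, Tlx1 at -0.23, Mfsd4a at 0.02, Dlx3 at 0.05 and 0.14, Gm6116 at 0.17 and 0.39, Colgalt2 at 0.19, Tdrd5 at 0.22 and Sox6 at -0.06, 0.02 and 0.55. At Tlx1, a homeobox factor of the spleen, a 23400 bp region held 2.20 and 1.48 in WT and 1.68 and 1.54 in DKO, and the groups overlapped.

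H3K27me3 was called higher at 7 regions, all listed only in DKO and all with 0 to 3 reads in each WT clone and 11 to 21 in each DKO clone. All 7 entered the tested set through the DKO list alone, so their p-values come from regions picked in the same clones. The region with the largest rise, chr8:102806701-102807000, was 21.6 kb from Cdh11, with 3 and 0 reads in WT and 13 and 21 in DKO (2.78 ± 0.64, limma adjusted p = 0.0436). An intron of the neural adhesion gene Lsamp (2.70), a region nearest Tbl1xr1 (2.39), an intron of Pla2g12a (2.39), a region nearest Barx2 (2.38), an intron of Inpp4b (2.08) and a region nearest Lrrc52 (1.94) made up the rest. No other ChIP was called at any of the 7, and K27-K4 was called higher at 0.00929% of all regions. None overlapped the E14 bivalent regions, and none of the 38 E14 total H3K27me3 regions called higher in DKO overlapped any of the 7. Since only 7 were called, regions where both DKO clones lay above both WT clones by over 1 are described too, with no test. There were 2853, or 6.63% of all regions, against 2730 (6.34%) in the lower direction. Of the 2853, 2844 were listed only in DKO, the median width was 450 bp, and 5.89% were at promoters.

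Klhl13, an X-linked kelch protein gene, had the largest of these untested rises. Its promoter region, chrX:23364451-23365800, held 6 and 1 reads in WT and 44 and 51 in DKO, a difference of 3.72 (limma adjusted p = 0.327). Smim10l2a (2.97), Arap2 (2.71) and Prrg4 (2.57) followed among promoters, each with 1 or 2 reads in WT clone 58. Efs, an adaptor of Src signalling, had a broader promoter region of 2250 bp with 13 and 18 reads in WT and 88 and 125 in DKO (2.22, limma adjusted p = 0.0743). Among regions of 3 kb and more the largest were at Stx3 and Nwd1, both at 1.22. These regions did not pass the test, and they were named by rank in this untested group.

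The lists of regions differ more between the genotypes than the values do. Of WT regions 54.2% overlapped a DKO region, and of DKO regions 33.2% overlapped a WT region. The 9817 regions listed only in WT had a median difference of -0.72, the 21621 listed only in DKO had 0.49, and the 11619 listed in both had -0.06. The lists are labelled by these genotypes, so these medians are a description and not a separate reading. Of the WT-only regions 94.7% lay below 0, and of the DKO-only regions 6.97% did. Of the lost regions 169 were listed only in WT and 3 in both. At 6626 of the 21621 DKO-only regions all 4 clones were above 0, against 20650 of all 43057 regions and 10136 of the 11619 listed in both. Chromosome 8 held 2291 of the 21621 DKO-only regions, 1.81 for each WT region, against 0.646 to 1.19 on the other chromosomes. It held 338 of the 2853 untested rises, 2844 of which were DKO-only regions, and 2 of the 7 gained regions. Its counts of rises are to be read against its part of the DKO-only regions. In the E14 region set its median lay above that of the whole library by 0.11 and 0.13 in WT clones 57 and 58 and by 0.18 and 0.32 in DKO clones 43 and 53 for H3K27me3, and for H3K4me3 by 0.17, 0.15, 0.21 and 0.32. The part of this in the gained regions was not tested. Without chromosome 8, limma called 238 regions lower and 18 higher.

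The E14 total H3K27me3 regions, listed in other libraries, give a set whose choice did not use the clones. Over those 21527 regions the median difference was 0.01, and 172 were called lower (0.799%) and 38 higher (0.177%), by the same limma test. Median centring left 10 and 1 of this set called, voom called 175 lower and 2 higher, and leaving out a clone gave 3 (without DKO clone 43) to 177 lower (without WT clone 58) and 0 (without DKO clone 43) to 156 higher (without WT clone 57). Of those called lower 44.2% were at promoters, the median width was 1350 bp and the median difference -1.76. Of these 172 calls 40 overlapped a lost region of the clone lists, and 31 of the 172 lost regions overlapped such a call, 30 of them wider than 300 bp. Of the 172 lost regions 21.5% overlapped any E14 region, against 16.0% of all regions. K27-K4 was called lower at 101 of the 172, against 1.58% of the E14 set. Of the 172, 62.2% overlapped a region listed in the clones, against 34.7% of the E14 set. Among those that did not was an exonic region 11.2 kb from its nearest start site, that of the zinc finger gene Zfp316, with 2.61 and 1.88 in WT and -1.09 and -0.16 in DKO over chr5:143254201-143258850 (-2.87, limma adjusted p = 1.53e-07). A second region of the same 8.6 kb locus, nearest Zfp12, was at -2.81. Promoter regions outside the clone lists included the estrogen receptor gene Esr1 (-2.35) and the BMP ligand gene Bmp3 (-2.20). These loci were chosen after their values were seen. The 38 called higher had a median width of 300 bp and 3 were at promoters. The largest, nearest Sulf1, held 2 and 2 reads in WT and 20 and 25 in DKO (2.93).

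The number of calls depended on the scaling and on single clones. With each library centred on its median, limma called none in either direction (smallest adjusted p 0.231, with 3844 regions lower and 3116 higher at an unadjusted p under 0.05), and voom on the recovered reads called 407 lower and 36 higher. The median difference of the 68 wider lost regions was -2.02 after centring, against -2.01 before. Voom called 67 of the 68 wider lost regions and none of the 104 of 300 bp, and none of the 7 gained regions. Leaving out a clone gave 187 lower and 885 higher without WT clone 57, 279 and 427 without WT clone 58, 140 and 0 without DKO clone 43, and 502 and 45 without DKO clone 53, each fit with a lone clone assumed to vary like the other genotype. Of the 172, 39, 56, 41 and 125 remained called in these fits. An exact permutation test of 2 against 2 clones cannot go below a two-sided p of 0.333, so no single value was tested that way.

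**Figure D5:**
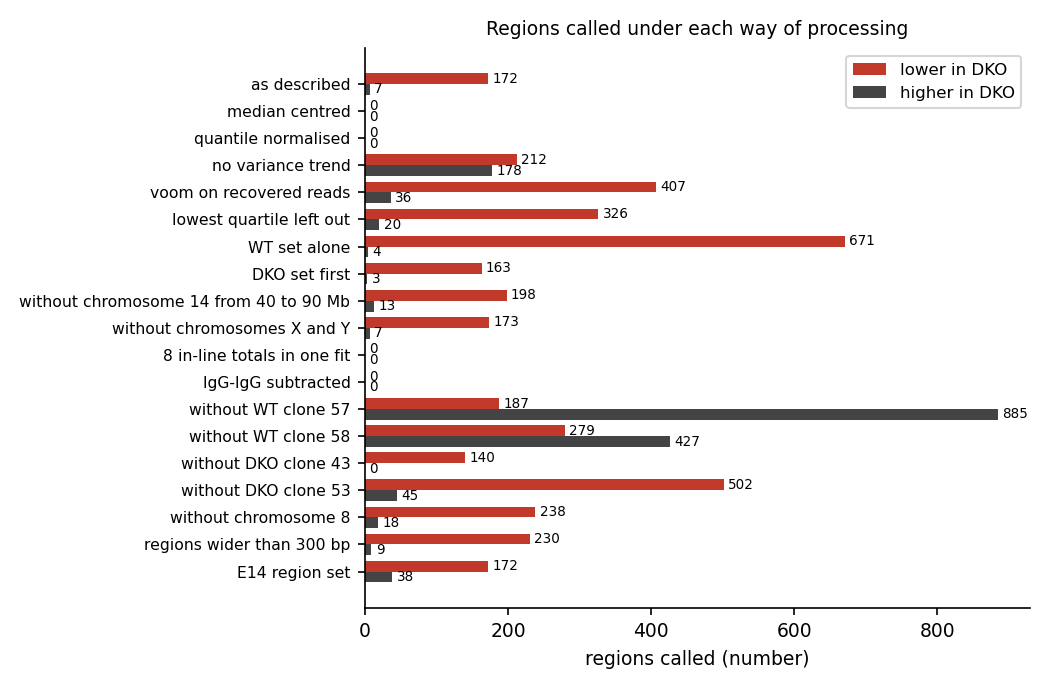
Number of regions called lower (red) and higher (dark) in DKO (x axis) under each way of processing the same 4 libraries, with the numbers at the bars. Calls lower run from 0 to 671 and calls higher from 0 to 885.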

How the data were processed

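Total H3K27me3 and the other ChIPs were read in 17 libraries of the WT and DKO clones, 9 E14 libraries serving only for region lists. Per the labels and methods, the authors trimmed reads with Trim Galore 0.6.6, aligned them to mm10 (GRCm38) with BWA 0.7.13, and used SAMtools 1.9 and Picard 2.6.0 (duplicates marked, not removed). They deposited log2 RPM per kb from SeqMonk, for alignments with a mapping quality over 20, without IgG-IgG subtraction. Their methods describe EPIC2 peaks called per replicate against IgG-IgG, but many of the listed widths are not multiples of the stated bin, so whether these lists are those peaks is unknown. All values were whole multiples of 1 read (within 0.02 reads, 0 reads entered as 0.9), so reads were recovered. A further 32 columns belong to no sample of the series and were not used.

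Regions were compared with limma 3.58.1 in R 4.3.3 (lmFit, eBayes with trend and robust, Benjamini-Hochberg over all 43057 regions), on the 4 libraries of a ChIP. The plan had foreseen a count test for the case of raw counts, which limma on the log2 values replaced. A region was called at an adjusted p under 0.05 and a log2 difference above 1. The fit was tested on simulated data first. Tables used Python 3.11.15, numpy 2.4.6, pandas 2.3.3 and matplotlib 3.10.9. A promoter is 1.5 kb up- and downstream of a RefSeq start site. Overlap means at least 1 bp. Lost regions within 5 kb of each other were joined into loci.

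Named were, per direction, the 10 called regions with the largest difference (of those described untested where fewer were called), loci that the study names, and for each gene list the 2 promoter regions with the largest difference. Members and lists were chosen with earlier results of these data known. Alternatives covered scaling, variance model, voom, thresholds, regions tested, the IgG-IgG library, promoter and overlap rules, and each clone left out. The E14 region set, the clone as a block, the omission of chromosome 8 and of regions of 300 bp were added after seeing the data. Between 15601155 and 33848181 reads per H3K27me3 library set the counting error. Independent total ChIPs from larger cell numbers and gene expression were not analysed here. Some genes that the naming rule covers are not reported here.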

Additional observations from a re-analysis of the deposited data

How the results depend on the processing

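Against 172 regions lower and 7 higher, limma called 0 and 0 after median centring, 0 and 0 after quantile normalisation, 0 and 0 with the 8 in-line totals in 1 fit, and 0 and 0 after IgG-IgG subtraction, where 3844 and 3116, 4537 and 2269, 1507 and 1364, and 3292 and 2788 regions had an unadjusted p under 0.05. In these 4 fits all 172 lost regions stayed below 0, with smallest falls of -1.72, -1.83, -1.71 and -1.71, and all 7 gained regions stayed above 0. The median difference of the 68 wider lost regions was -2.02, -2.19, -2.01 and -5.92 in the same order, against -2.01. Voom on the recovered reads called 407 and 36, leaving out the lowest quartile 326 and 20, and the WT set alone 671 and 4. The WT set holds only regions listed in WT, so its lean to lower values (median difference -0.33) is partly built in. Calls higher were 178 without the variance trend, 3 with the DKO set first, 13 without chromosome 14 from 40 to 90 Mb, 18 without chromosome 8 and 38 in the E14 region set. Leaving out each clone gave 140 to 502 lower and 0 to 885 higher. In the E14 region set it gave 3 to 177 lower (3 without DKO clone 43, 25 without WT clone 57, 55 without DKO clone 53) and 0 to 156 higher (66 without WT clone 58), median centring gave 10 and 1, and voom gave 175 and 2. Without a test, both DKO clones lay below both WT clones by over 1 at 320 promoter regions and above by over 1 at 168. Limma called 40 and 0 promoter regions. The cause of these changes was not tested. No paired analysis was possible because WT clones 57 and 58 and DKO clones 43 and 53 share no number between the genotypes. The 2 marks do share clones, and the clone as a replicate block across them, added after seeing the data, left the interaction at 0 calls. At the 104 lost regions of 300 bp the DKO levels rest on 1 to 10 reads.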

Other observations

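The chromosome 14 regions of the E14 set lay below the library median by about the same amount in all 4 clones, at -0.54 and -0.50 in WT clones 57 and 58 and -0.55 and -0.51 in DKO clones 43 and 53 for H3K27me3, and between -0.54 and -0.42 for H3K4me3. On the lists of regions, chromosomes 17 and 14 had the highest share of WT regions lost (1.32% and 1.25%) and chromosomes 19 and 8 the lowest (0.342% and 0.395%), with 2 to 11 lost regions behind each share and no test.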
